A study of Mus musculus with 16 samples.

Results

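The genes described here are the TGF-beta ligands Tgfb1, Tgfb2 and Tgfb3, the latent binding protein Ltbp1, the receptors Tgfbr1 and Tgfbr2, the signal transducers Smad2 and Smad3, the inhibitory Smad7 and the related stress factor Gdf15, 10 genes in all. They were chosen by name: every probe set annotated with 1 gene and carrying one of these symbols was used. This gave 18 probe sets for 9 of the 10 genes, out of 28898 probe sets annotated with 1 gene and 17097 genes tested. No probe set carried the symbol Gdf15 in the platform annotation used, so Gdf15 is not analysed here.

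TGF-beta is secreted in a latent complex, held in the matrix by latent binding proteins, and acts only once it is released. The free ligand brings the type II receptor together with the type I receptor, which phosphorylates Smad2 and Smad3. These join Smad4 and enter the nucleus, where they act on target genes, Smad7 among them, whose product in turn blocks the receptor. In the heart the pathway is best known for driving matrix production by fibroblasts, and cardiomyocytes also carry its receptors.

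Cardiomyocytes from adult mice were profiled on 16 Affymetrix MG-430 PM arrays, 1 per mouse. The 4 groups were female GPER-knockout (GPER KO), female wild type (called intact), male GPER KO and male intact, with 4 mice in each. The labels give an age of 15 weeks for all mice, whereas the study's text gives a somewhat older age. GPER is the G protein-coupled estrogen receptor. The study describes the deletion as specific to cardiomyocytes, and the promoter driving the recombinase is not given in the sources used here. The cells were enriched by enzyme perfusion, straining and slow spinning rather than sorted, so RNA of other heart cells can be present. The values are on a log2 scale, on which a difference of 1 is a doubling, and each gene was represented by its brightest probe set over all arrays. The number of arrays, 4 per group, limits the precision.

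Array medians lay between 3.47 and 3.51 and the arrays correlated at 0.982 to 0.997, and none was a copy of another. All 9 measured cardiomyocyte markers were bright, and their mean level was close to 12.5 in each group. The single Gper1 probe set was dim, from 2.64 to 3.11 over the 16 arrays. Its GPER KO minus intact difference was -0.08 in females (limma, adjusted p = 0.748) and 0.01 in males (adjusted p = 0.983). Whether this probe set lies within the deleted part is not known, so it does not check the genotype labels. Macrophage and endothelial markers leaned one way with genotype, but taken by sex only macrophage markers in males were called. In such bulk samples, fewer cells of a type and less RNA per cell cannot be told apart. Of 14 macrophage markers, 13 were higher in GPER KO females (0 called) and 14 in GPER KO males (6 called, Mpeg1, Cd68, Lyz2, Ctss, Fcgr3 and Tyrobp). The mean macrophage level was 4.65 in intact and 5.01 in GPER KO females, and 4.86 in intact and 5.54 in GPER KO males. All 12 endothelial markers were lower in GPER KO mice of either sex, with a mean level of 6.45 in intact and 6.16 in GPER KO females and of 6.63 and 6.31 in males (0 called). For comparison, 41.2% of all genes were higher in GPER KO females and 56.5% in GPER KO males, with 0.281% and 0.62% called.

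None of the 9 measured genes passed the threshold of an adjusted p under 0.05 (limma, Benjamini-Hochberg over all genes) for GPER KO against intact mice, in females, in males or as the mean of both sexes. Over all 17097 genes the same test called 0.281% in females, 0.62% in males and 1.36% for the mean of both sexes, so 0 of 9 lies near the background. Without adjustment, 2 of the 9 genes had a p under 0.05 in females (Smad3 and Ltbp1), 0 in males and 2 for the mean of both sexes, beside 12.6%, 10.1% and 11.7% of all genes. In females 5 genes were above 0 and 4 below, with a median difference of 0.01 beside -0.02 for all genes. In males 3 were above and 6 below, with a median of -0.03 beside 0.01. Of all genes, 41.2% were above 0 in females and 56.5% in males. No gene separated all 4 GPER KO arrays from all 4 intact arrays in either sex, which 5.69% of all genes did in females and 6.21% in males.

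The width of the intervals was examined for 8 genes, leaving out Tgfb2, whose signal was too low for its interval to bound a change. For the mean of both sexes, the 95% interval of all 8 lay within 0.5 of 0 on the log2 scale. It did so for 7 of 8 in females and 6 of 8 in males, and within 1, a doubling, for 8 of 8 in each sex.

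**Figure D1:**
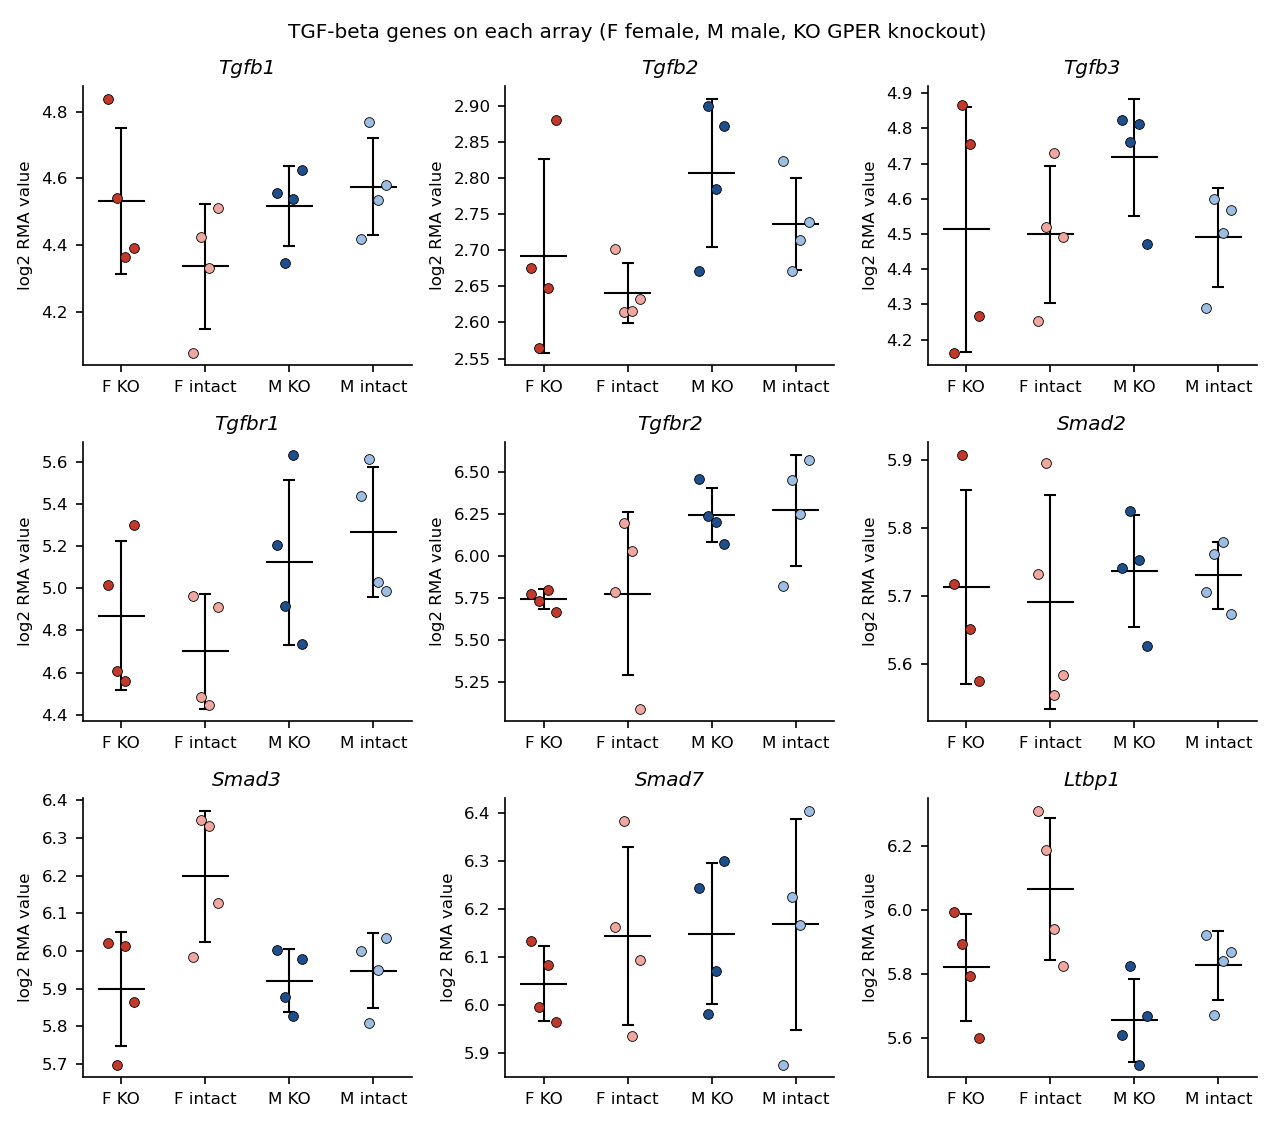
Log2 values of the 9 measured genes on each of the 16 arrays (y axis, log2 signal) by group (x axis), with 1 point per mouse and the group mean and SD. GPER KO and intact points overlap for every gene in both sexes, and the clearest offset is the lower Smad3 of GPER KO females (5.90 ± 0.15 against 6.20 ± 0.17).

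Among the ligands, Tgfb1, the isoform most tied to tissue fibrosis, was measured by 1 probe set. It read 4.84, 4.54, 4.36 and 4.39 in GPER KO females and 4.08, 4.43, 4.33 and 4.51 in intact females. It read 4.56, 4.35, 4.54 and 4.63 in GPER KO males and 4.42, 4.77, 4.53 and 4.58 in intact males. The highest female value was that of GPER KO mouse 417 and the lowest that of intact mouse 418, and the other female arrays overlapped. The difference was 0.20 in females (95% interval -0.04 to 0.43, adjusted p = 0.494) and -0.06 in males (-0.30 to 0.18, adjusted p = 0.918). Without mouse 417 the female difference was 0.09, and without mouse 418 it was 0.11.

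Tgfb2, an isoform used in heart valve and outflow development, gave a signal too low to follow. Its mean stood at the 20.5 percentile of all probe sets, and on 0 of 16 arrays did it exceed the 40 percentile value of 3.18. Its differences were 0.05 in females and 0.07 in males.

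Tgfb3, the third isoform, read 4.16, 4.87, 4.75 and 4.27 in GPER KO females and 4.25, 4.52, 4.73 and 4.49 in intact females. It read 4.82, 4.76, 4.81 and 4.47 in GPER KO males and 4.29, 4.60, 4.50 and 4.57 in intact males. Thus 3 of 4 GPER KO males lay above every intact male, while the fourth, mouse 451, lay within their range. The male difference was 0.23 (SE 0.14, 95% interval -0.08 to 0.53, adjusted p = 0.668) and the female difference 0.01 (-0.29 to 0.32, adjusted p = 0.976). The GPER KO effects of the sexes differed by 0.21, which did not pass the test (adjusted p = 0.724).

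Ltbp1, which tethers latent TGF-beta to the matrix, was one of 2 members, with Smad3, whose interval for the mean of both sexes lay below 0. In females it read 5.99, 5.89, 5.79 and 5.60 in GPER KO and 6.31, 6.19, 5.94 and 5.82 in intact mice. In males it read 5.61, 5.82, 5.52 and 5.67 in GPER KO and 5.92, 5.67, 5.84 and 5.87 in intact mice. In each sex the upper end of the GPER KO arrays overlapped the lower end of the intact arrays. The difference was -0.25 in females (-0.47 to -0.02, adjusted p = 0.359), -0.17 in males (-0.40 to 0.05, adjusted p = 0.657) and -0.21 for the mean of both sexes (SE 0.08, -0.37 to -0.05, adjusted p = 0.248). It was not called. The other Ltbp1 probe sets, both dim (14.1 percentile and below), differed by 0.02 and 0.07 in females and by -0.04 and -0.09 in males. Averaging the 3 probe sets gave -0.05 in females and -0.08 for the mean of both sexes.

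Neither receptor was called between genotypes, and both differed much among mice. Tgfbr1, the type I receptor kinase, read 5.02, 4.61, 4.56 and 5.30 in GPER KO females and 4.96, 4.48, 4.45 and 4.91 in intact females. It read 5.20, 4.92, 5.63 and 4.74 in GPER KO males and 5.44, 5.61, 5.03 and 4.99 in intact males. In both sexes the genotypes overlapped, with the wider range in GPER KO (0.74 against 0.51 in females, 0.90 against 0.63 in males). The difference was 0.17 in females (-0.27 to 0.61, adjusted p = 0.788) and -0.14 in males (-0.58 to 0.30, adjusted p = 0.886). The female value was -0.07 when intact mice 421 and 422 were left out together.

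Tgfbr2, the type II receptor that binds the ligand first, read 5.77, 5.73, 5.80 and 5.66 in GPER KO females and 5.78, 6.19, 6.03 and 5.09 in intact females. The 4 GPER KO females lay close together (5.74 ± 0.06, SD, n = 4), inside the wide spread of the intact females (5.77 ± 0.49). Males read 6.46, 6.24, 6.20 and 6.07 in GPER KO and 5.82, 6.45, 6.25 and 6.57 in intact mice. The difference was -0.03 in both sexes, with 95% intervals of -0.44 to 0.37 in females and -0.43 to 0.38 in males (adjusted p = 0.961 and 0.978). The female value rested on single arrays, being -0.26 without intact mouse 425 and 0.11 without intact mouse 421.

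Of the transducers, Smad2 hardly varied. Its 16 arrays lay between 5.55 and 5.91, and the difference was 0.02 in females (-0.15 to 0.19, adjusted p = 0.943) and 0.01 in males (-0.16 to 0.18, adjusted p = 0.988).

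Smad3, the transducer that binds DNA directly, had the largest difference in absolute size among the 9 genes in females. It read 6.02, 5.70, 6.01 and 5.86 in GPER KO and 5.98, 6.35, 6.33 and 6.13 in intact females. Intact mice 421, 422 and 425 lay above every GPER KO female, and intact mouse 418 lay within the GPER KO range. In males the intact arrays ran from 5.81 to 6.04 and held all 4 GPER KO arrays between them, the lowest at 5.83. The difference was -0.30 in females (SE 0.09, -0.49 to -0.11, adjusted p = 0.204) and -0.03 in males (-0.22 to 0.16, adjusted p = 0.955). For the mean of both sexes it was -0.16 (SE 0.06, -0.30 to -0.03, adjusted p = 0.296). None of these was called, and the difference between the sexes of 0.27 was not called either (SE 0.13, 0.004 to 0.54, adjusted p = 0.45).

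The Smad3 probe sets did not move together. The other Smad3 probe sets, at the 46.9 and 25.5 percentile, differed by 0.15 and -0.05 in females. The mean of the 3 gave -0.07 in females, and leaving out intact mice 421 and 422 together gave -0.16 from the brightest probe set.

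Smad7, the inhibitory Smad induced by the pathway itself, ranged from 5.97 to 6.13 in GPER KO and from 5.94 to 6.38 in intact females. In males it ranged from 5.98 to 6.30 in GPER KO and from 5.88 to 6.41 in intact mice. The intact range contained the GPER KO range in both sexes. The difference was -0.10 in females (-0.33 to 0.13, adjusted p = 0.76) and -0.02 in males (-0.25 to 0.21, adjusted p = 0.974).

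**Figure D2:**
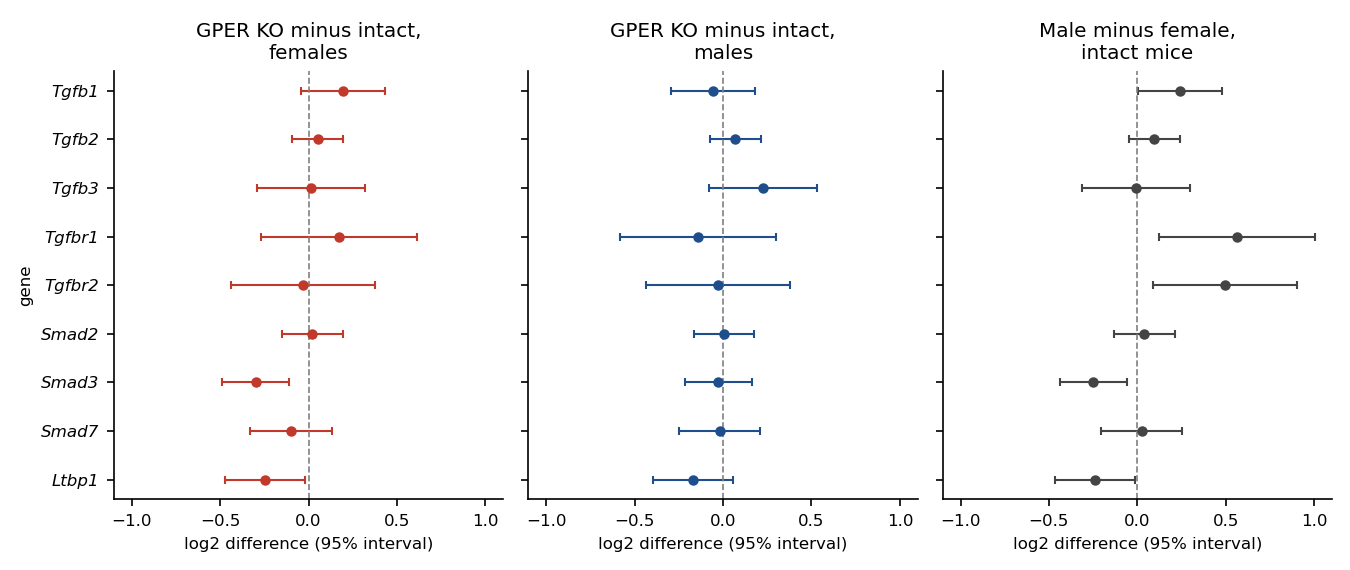
Log2 differences (x axis) of the 9 measured genes (y axis) with 95% intervals from limma, for GPER KO minus intact in females (n = 4 and 4), in males (n = 4 and 4), and male minus female among intact mice (n = 4 and 4). The intervals cross 0 in every case but Smad3 and Ltbp1 in females and Tgfb1, Tgfbr1, Tgfbr2, Smad3 and Ltbp1 between the intact sexes, and none passed after adjustment.

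For the difference between the sexes in the response to the deletion, 0 of 9 members were called (1 with an unadjusted p under 0.05). The test called 0% of all genes, although 1875 of them had an unadjusted p under 0.05. The lack of a call does not show equal responses, as the intervals were wide (-0.94 to 0.31 for Tgfbr1). The 18 probe sets tested singly gave 0 calls in each comparison.

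**Figure D3:**
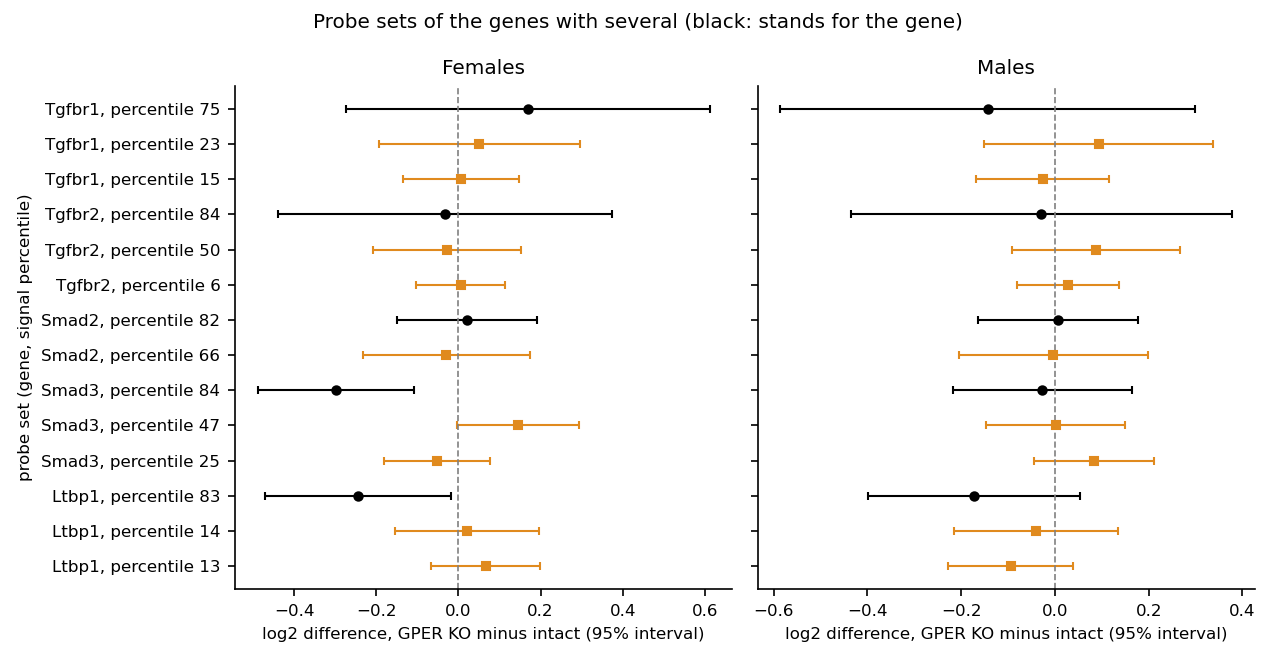
Log2 differences, GPER KO minus intact (x axis, with 95% intervals; the panels differ in scale), of the 14 probe sets of the 5 genes that have several (y axis, with the signal percentile), in females and in males; black points stand for the gene. The dimmer probe sets of Smad3 and Ltbp1 lie near or above 0 in females, apart from the brightest probe set of each gene (-0.30 and -0.25).

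Among intact mice, sex was compared as a second factor. All females are numbered 417 to 427 and all males 430 to 453. Sex, here and in the response to the deletion, therefore cannot be told apart from any difference in handling between these sets of mice. Again 0 of 9 genes were called, beside 0.579% of all genes, but 5 of 9 had an unadjusted p under 0.05, beside 17.5% of all genes. The brightest probe set of each receptor was higher in intact males. Tgfbr1 was 0.56 higher (0.12 to 1.01, adjusted p = 0.18), and all 4 intact males (4.99 to 5.61) lay above all 4 intact females (4.45 to 4.96). By the brightest probe sets, it was the only one of the 9 genes whose sexes did not overlap, which held for 8.44% of all genes. A dimmer Smad3 probe set (-0.16) and a dim Ltbp1 probe set (0.15) did not overlap either. Tgfbr2 was 0.50 higher (0.09 to 0.90, adjusted p = 0.197), with intact male 430 at 5.82 and intact females 421 and 422 at 6.19 and 6.03 overlapping. The dimmer probe sets of the receptors differed by 0.00723 and 0.07 for Tgfbr1 (22.7 and 14.7 percentile) and by 0.01 and 0.07 for Tgfbr2 (50.0 and 5.90 percentile). Apart from the Tgfbr2 probe set at the 50.0 percentile, they exceeded the 40 percentile value on 0 of 16 arrays. The signal of those was too low to follow a difference between the sexes. Tgfb1 was 0.24 higher (0.001 to 0.48, adjusted p = 0.283).

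Smad3 and Ltbp1 differed the other way, by -0.25 (-0.44 to -0.06, adjusted p = 0.17) and -0.24 (-0.47 to -0.01, adjusted p = 0.262). The same intact females enter these values and the GPER KO differences of females, so they are given side by side only. Of the dim Ltbp1 probe sets, one differed by -0.19, as the brightest did, and the other by 0.15, the opposite way. The dimmer Smad3 probe sets differed by -0.16 and -0.09. Between the intact sexes, endothelial, macrophage and fibroblast markers also leaned one way. In males 9 of 12 endothelial markers (median 0.25), 13 of 14 macrophage markers (median 0.23) and 10 of 11 fibroblast markers (median 0.13) were higher, with 0 called. Of all genes, 42.2% were higher in intact males. The part of these other cells in the receptor values was not tested.

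Over the 16 arrays, the genes with the most similar pattern were sought for each member among genes above the 40 percentile, as a description. For Smad3 these were Slc1a2 (Pearson r = 0.92), Dcaf4 (0.91) and Mrln (0.91). For Tgfbr2 they were Nid1 (0.92), Ankrd13a (0.91) and Zbtb4 (0.90), and for Tgfbr1 they were Tmed5 (0.90), Spopl (0.88) and Megf9 (0.88). For Ltbp1 they were Fbp2 (0.88), Gm11944 (0.86) and Nhsl1 (0.86). For Tgfb1 the closest gene reached only 0.73 (Hmmr). The points share arrays and group differences. As deviations from the group means, r was 0.87 for Slc1a2 with Smad3 and 0.84 for Nid1 with Tgfbr2. Slc1a2 and Nid1 were each the highest of 12507 genes by r over the 16 arrays, not by the within-group value. As the within-group values come from the same arrays, they are no separate check. Between members, r ran from -0.53 (Tgfbr1 with Smad3) to 0.50 (Tgfbr2 with Smad7).

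A further 102 genes of the pathway and its surroundings were listed by role, and 89 of them were measured. In females 0 of 89 were called, and 16 had an unadjusted p under 0.05. In males 1 was called (1.12%), and 12 had such a p. For the mean of both sexes 2 were called (2.25%), and 21 had such a p. Over all genes 0.281%, 0.62% and 1.36% were called, and 12.6%, 10.1% and 11.7% had such a p. The called genes were Ccn2, which was higher in GPER KO mice, and Smad4, which was lower. The medians of the 89 genes, -0.04 in females and 0.002 in males, were close to those of all genes.

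Ccn2, connective tissue growth factor, is a matricellular protein and a long-known TGF-beta target that stretch and other signals also induce. It read 9.58, 8.69, 8.37 and 8.56 in GPER KO females and 7.88, 7.58, 8.30 and 8.29 in intact females. It read 8.54, 8.87, 8.76 and 8.80 in GPER KO males and 7.89, 7.72, 8.17 and 7.70 in intact males. All GPER KO arrays lay above all intact arrays of their sex. Ccn2 rose by 0.83 for the mean of both sexes (SE 0.15, adjusted p = 0.00906). Taken singly, the difference was 0.78 in females (SE 0.21, adjusted p = 0.169) and 0.87 in males (SE 0.21, adjusted p = 0.0924), neither of which was called. GPER KO female 417 was the highest array, and without it the female difference was 0.53. The macrophage level was higher and the endothelial level lower in the same GPER KO groups, as given above. Fibroblast markers also tended higher, with 8 of 11 above 0 for the mean of both sexes (median 0.22) and 0 called. The collagens Col3a1 and Col1a1, named after their values were seen and listed as TGF-beta targets too, differed by 0.95 (adjusted p = 0.0923) and 0.26 (adjusted p = 0.126). They had the lowest p of the 11 fibroblast markers. Dcn, the brightest of the 11, differed by 0.14, and the 3 below 0 were Pdgfra (-0.08), Tcf21 (-0.06) and Pi16 (-0.02). The fibroblast level ranged from 4.93 to 5.19 in GPER KO and from 4.62 to 5.06 in intact females, and from 4.80 to 5.51 and from 4.78 to 5.30 in males. Of the immediate early genes, which can respond to cell isolation, 8 of 8 were below 0 in females and 6 of 8 in males (0 called). Of 3 atrial or conduction markers, Nppa was called higher in GPER KO females (1.18, adjusted p = 0.048) and males (1.41, adjusted p = 0.00903). Myl7 differed by -1.22 and 1.38 and Myl4 by -1.11 and 1.16 (not called), and the list mean ran from 7.66 to 10.6 over the arrays. The part of these cells and genes in the Ccn2 value was not tested.

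Smad4, the partner that Smad2 and Smad3 share with the BMP branch, read 7.59, 7.59, 7.38 and 7.35 in GPER KO males and 7.84, 7.80, 7.71 and 7.77 in intact males, with no overlap. In females it read 7.54, 7.36, 7.42 and 7.48 in GPER KO and 7.62, 7.60, 7.51 and 7.67 in intact mice, where intact mouse 422 fell below GPER KO mouse 417. Smad4 fell by 0.31 in males (SE 0.06, adjusted p = 0.041) and by 0.23 for the mean of both sexes (SE 0.05, adjusted p = 0.0183). The female difference was -0.15 (SE 0.06, adjusted p = 0.365). The other Smad4 probe sets, at the 90.1 and 93.1 percentile, differed less in males, by -0.10 and -0.16 (adjusted p = 0.565 and 0.227). For the mean of both sexes they differed by -0.13 and -0.14 (adjusted p = 0.119 and 0.0597). Neither was called, so the male call rests on the brightest probe set. For the brightest probe set, the male call was lost in 13 of 26 alternatives, among them the fit of the male arrays alone (adjusted p = 0.123). It was also lost without any 1 of the intact males, GPER KO males 444 and 451, GPER KO females 426 and 427 or intact females 418 and 421 (adjusted p = 0.0535 to 0.137), whereas the call for the mean of both sexes held in all 25.

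**Figure D4:**
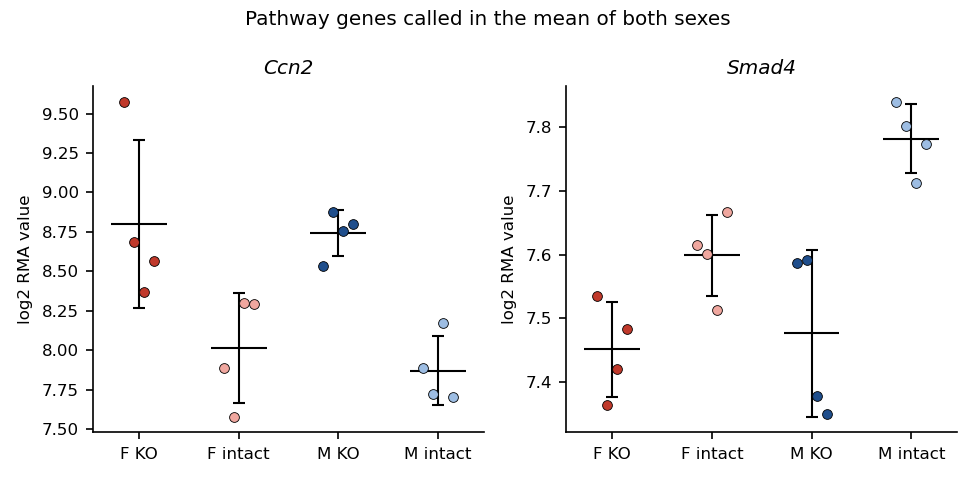
Log2 values of Ccn2 and Smad4 on each array (y axis, log2 signal) by group (x axis), with 1 point per mouse and the group mean and SD (n = 4). Ccn2 lies higher in GPER KO than in intact mice of both sexes (8.80 against 8.01 and 8.74 against 7.87), and Smad4 lies lower (7.45 against 7.60 and 7.48 against 7.78).

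By role, the lists below include Ccn2 and Smad4, and no other gene in them was called. The counts above and below 0 stand beside those of all genes. Of these, 41.2% were above 0 in females, 56.5% in males and 49.1% for the mean of both sexes. Of 12 activin and BMP branch receptors and co-receptors, 8 were below 0 in females and 10 in males. Acvr1b, an activin type I receptor, differed by -0.20 for the mean of both sexes (adjusted p = 0.288). Eng, endoglin, a co-receptor abundant in endothelium, differed by -0.26 (adjusted p = 0.433), while all endothelial markers were also lower; their part was not tested. All 5 other Smads, Smad4 included, were below 0 for the mean of both sexes. Among them Smad6, which inhibits the BMP branch, differed by -0.26 (adjusted p = 0.372), with -0.40 in females and -0.13 in males.

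Of 10 measured latency and activation genes, 5 were above and 5 below 0 in females, and 3 above and 7 below in males. The integrin subunits Itgb6 and Itgb5 are parts of receptors that can free latent TGF-beta. For the mean of both sexes they differed in opposite directions, by -0.25 (adjusted p = 0.184) and 0.19 (adjusted p = 0.271). Itgb6 differed by -0.41 in females and -0.08 in males, and Itgb5 by 0.17 and 0.21. Of 15 regulators of Smad signalling, 10 were below 0 in females and 8 in males. For the mean of both sexes the lowest p among them belonged to Tab2, an adaptor of the TAK1 kinase (-0.15, adjusted p = 0.237), and Ppm1a, a phosphatase that acts on receptor Smads (-0.10, adjusted p = 0.275).

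Of 17 other ligands and ligand inhibitors, 11 were below 0 in females and 9 in males. Bmp6, a ligand of the BMP branch, differed by -0.34 in females and -0.33 in males (mean of both sexes -0.34, adjusted p = 0.12), and Fstl3, an activin inhibitor, by 0.16 and 0.39 (mean 0.27, adjusted p = 0.169).

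Of 19 TGF-beta targets, 9 were above 0 in females and 14 in males, with medians of -0.01 and 0.08, and Ccn2 was the one called. Tgfbi, a matrix protein named for its induction by TGF-beta, differed by 0.29 in females and 0.67 in males (mean 0.48, adjusted p = 0.0529). Of 11 genes known to induce Gdf15 or to accompany it in stress, 5 were above 0 in females and 9 in males, with 0 called. The leading genes were Asns, asparagine synthetase (mean 0.25, adjusted p = 0.212), and Cdkn1a, the cell cycle inhibitor p21 (mean 0.44, adjusted p = 0.275).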

How the data were processed

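Cardiomyocyte RNA was hybridised to 16 arrays, 4 per group. Per the labels, the authors made the deposited log2 values with RMA in Partek (versions not given in the sources used here), and these were used as deposited. Probe sets annotated with 1 gene were kept (28898 of 45141), their symbols updated by Entrez identifier (28689 matched, RefSeq mouse table), and the probe set with the highest mean stood for its gene. The 4 group means were fitted to all 17097 genes with limma 3.58.1 (lmFit, eBayes) in R 4.3.3, with Benjamini-Hochberg adjustment over all genes and calls at an adjusted p under 0.05. The script was tested on simulated data.

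The named genes were all members, Gper1, every called pathway gene, the 2 pathway genes per role with the lowest p for the mean of both sexes, and the 3 genes most alike per member. Members and lists were chosen with earlier results of these data known. Each sample carries its own number in the labels, taken as that of its mouse. Nothing else says that the samples were separate preparations, so the p-values measure the spread between these samples. Array strip or scan batches were not given in the sources used here. Alternatives were other summaries of probe sets, a filter on low values (above the 40 percentile on 4 arrays), quantile normalization, median centring, array weights, a trended robust fit, 1 sex alone and leaving out each array. Leaving out intact females 421 and 422 together, and the pathway counts under each alternative, were added after seeing the data.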

Additional observations from a re-analysis of the deposited data

Results flagged for a closer look

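Of 72 groups of 4 arrays examined, 2 held an array far from the other 3. Chance alone gives this in about 1 in 20 groups. In a dim Tgfbr1 probe set, intact male 433 read 2.60 beside 2.77, 2.79 and 2.80 in the other intact males, a gap of 0.851 of the group's range. In a dimmer Smad2 probe set, GPER KO female 417 read 4.48 beside 4.13, 4.17 and 4.19, a gap of 0.838 of the range. Neither probe set stood for its gene in the comparisons.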

How the results depend on the processing

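The count of members called stayed at 0 under every alternative run for it, 26 in females, in males and between the intact sexes, and 25 for the mean of both sexes and for the difference in response. Of the 27 differences (9 members, in females, in males and for both sexes), 13 changed sign under some alternative, nearly all of them differences close to 0, and the cause was not tested.

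With probe sets averaged per gene, Smad2 gave -0.00387 in females and -0.00114 for both sexes, Tgfbr2 gave 0.0286 in males and 0.00515 for both, and Smad3 gave 0.0194 in males. Array weights gave -0.0227 for Smad2 in females and -0.00503 for both. Without intact females 421 and 422 together, chosen after seeing the data, Tgfbr1 gave -0.0652 in females and -0.10 for both, and Tgfbr2 gave 0.31 in females and 0.14 for both.

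Leaving out 1 array gave, in females, -0.0115 to 0.0940 for Tgfb2, -0.10 to 0.13 for Tgfb3, -0.26 to 0.11 for Tgfbr2 and -0.0437 to 0.0895 for Smad2. In males it gave -0.11 to 0.00602 for Tgfb1, -0.18 to 0.0711 for Tgfbr2, -0.0232 to 0.0430 for Smad2, -0.0734 to 0.00496 for Smad3 and -0.12 to 0.0601 for Smad7. For both sexes it gave -0.0721 to 0.0776 for Tgfbr1, -0.15 to 0.0394 for Tgfbr2 and -0.0186 to 0.0480 for Smad2.

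The pathway genes called in males numbered 0 with the mean of probe sets and with the trended robust fit, 2 with array weights, and 0 to 2 without 1 array. For both sexes they numbered 4 with array weights, 6 without intact females 421 and 422, and 2 to 6 without 1 array (6 without intact female 422 and 5 without GPER KO male 451). The filter on low values removed Tgfb2. Ccn2 for both sexes stayed between 0.70 and 0.90 and was called in all 25 alternatives (adjusted p = 0.00451 to 0.026). Ccn2 in males was called from the male arrays alone (adjusted p = 0.0115) and without GPER KO female 417 (adjusted p = 0.0135). Smad4 in males ranged from -0.34 to -0.19 (adjusted p = 0.0287 to 0.137). No paired analysis was possible because the animal numbers are not shared between groups. Dim probe sets limit Tgfb2 and Gper1 most.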
